A study of Homo sapiens with 7 samples.

Results

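Albumin and 7 further proteins secreted into blood plasma, among them carriers of small molecules, were followed at the transcript level in the human hepatocellular carcinoma line Huh-7. The genes were taken by symbol from the deposited table: ALB, TTR, RBP4, GC, AMBP, AHSG, FETUB and A1BG, 8 of the 58174 genes listed. Cells had received either control siRNA (siC, 3 libraries) or an siRNA pool against IGF2BP1 (siIGF2BP1, 4 libraries), and their total RNA was sequenced 72 h later. All 7 libraries came from the same line, grown in DMEM with fetal bovine serum, and both groups had been transfected with siRNA. The comparison therefore holds for a single line with IGF2BP1 lowered rather than removed. IGF2BP1, an oncofetal RNA-binding protein, was at 80.4 to 84.4 FPKM in siC and at 15.3 to 16.6 FPKM in siIGF2BP1, or 19.2% of the siC mean (log2 change -2.37, limma adjusted p = 1.16e-05). FPKM is a fragment count divided by gene length and by library size.

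Hepatocytes make most plasma proteins and secrete them through the endoplasmic reticulum and Golgi. Albumin is the most abundant of them, binds fatty acids, bilirubin and many drugs, and replaces its close relative alpha-fetoprotein (AFP) as the liver matures around birth. The other carriers serve particular ligands: transthyretin (TTR) carries thyroxine and, bound to RBP4, the retinol that RBP4 holds, while GC is the vitamin D-binding protein and also sequesters actin. AMBP encodes a precursor that is cut into a heme-binding lipocalin and the protease inhibitor bikunin. AHSG and FETUB are the fetuins A and B, of the cystatin superfamily. Fetuin A keeps calcium phosphate in solution and fetuin B inhibits ovastacin, the protease that hardens the coat of the egg. A1BG is a plasma glycoprotein of the immunoglobulin superfamily.

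The genes lay on 6 chromosomes (GRCh38), with 2 pairs on shared chromosomes. ALB (ENSG00000163631, chromosome 4, 73397114 to 73421482, plus strand, 15 exons in its canonical transcript) and GC (ENSG00000145321, chromosome 4, 71741696 to 71804041, minus strand, 13 exons) were 1593072 bases apart. AHSG (ENSG00000145192, chromosome 3, 186613060 to 186621318, plus strand, 7 exons) and FETUB (ENSG00000090512, chromosome 3, 186635969 to 186653141, plus strand, 7 exons) were separated by 14650 bases. TTR (ENSG00000118271) lay on chromosome 18, 31557009 to 31598833, on the plus strand, with 4 exons. RBP4 (ENSG00000138207) lay on chromosome 10, 93591687 to 93601744, on the minus strand, with 6 exons. AMBP (ENSG00000106927) lay on chromosome 9, 114060127 to 114078328, on the minus strand, with 10 exons. A1BG (ENSG00000121410) lay on chromosome 19, 58345178 to 58353492, on the minus strand, with 8 exons.

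The sequences just upstream of 3 transcription starts are shown for the most abundant member and for the neighbouring fetuin genes, which had the same direction of difference at very different levels. They are the 250 bases before the start in RefSeq (GRCh38.p14, plus strand), with a G+C content of 30.0% for ALB (chr4:73404037-73404286), 46.8% for AHSG (chr3:186612810-186613059) and 44.8% for FETUB (chr3:186635719-186635968). The ALB window lies within the annotated gene because longer transcripts begin further upstream. Capitals mark the CCAAT box and TATAAA, the TATA box, each searched on both strands.
ALB: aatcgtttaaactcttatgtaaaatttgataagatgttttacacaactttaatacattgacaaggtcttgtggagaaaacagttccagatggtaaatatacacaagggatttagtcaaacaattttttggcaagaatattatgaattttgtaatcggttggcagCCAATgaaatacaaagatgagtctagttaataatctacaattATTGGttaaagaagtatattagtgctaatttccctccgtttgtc
AHSG: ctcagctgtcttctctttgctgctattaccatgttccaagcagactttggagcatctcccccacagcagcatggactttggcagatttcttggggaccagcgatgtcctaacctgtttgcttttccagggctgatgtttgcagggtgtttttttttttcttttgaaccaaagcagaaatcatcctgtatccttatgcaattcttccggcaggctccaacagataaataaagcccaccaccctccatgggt
FETUB: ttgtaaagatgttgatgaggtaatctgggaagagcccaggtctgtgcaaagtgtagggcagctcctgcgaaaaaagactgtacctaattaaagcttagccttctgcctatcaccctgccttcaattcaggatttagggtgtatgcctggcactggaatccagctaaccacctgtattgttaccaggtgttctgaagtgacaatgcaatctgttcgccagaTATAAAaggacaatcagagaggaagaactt
The ALB window held 2 CCAAT boxes, from 86 to 82 bases before the start on the plus strand and from 44 to 40 bases on the minus strand, read there as ATTGG. FETUB held TATAAA from 30 to 25 bases before the start, and AHSG held neither motif. Over all 35116 RefSeq promoters of this length, 32.0% held CCAAT and 10.7% held TATAAA. These matches are letters in a window and no measure of binding. Of the 8 genes, 6 were listed in the promoter table; TTR and GC are named only.

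The libraries held from 13983987 to 33212205 reads on genes in siC and from 12826550 to 18248256 in siIGF2BP1. The third siC library, siC replicate 3, stood apart. Its log2 values deviated from the mean of the other siC libraries with an SD over genes of 0.444, against 0.267 and 0.211 for siC replicates 1 and 2 measured likewise. The Spearman correlation of this deviation with the G+C content of transcripts was -0.555 across 10653 genes, which are not independent replicates, and ran from -0.490 to 0.575 in the other 6 libraries. Results are therefore given with and without siC replicate 3. The fit without it has 2 siC libraries, which lay close together for ALB, TTR, RBP4, GC, AMBP and AHSG. Its p-values rest partly on that small spread. The hepatocyte and hepatoma markers SERPINA1, APOA1, APOA2, APOB, FGB, HNF4A, AFP and GPC3 were all above the filter of a mean of 1 FPKM, summed to 4727.7 FPKM in siC replicate 3 and to between 5400.6 and 6276.9 FPKM in the other 6 libraries, and 0 of 8 passed the test. In the fit without siC replicate 3, 1 of the 8 passed, FGB, which fell by 0.44 on the log2 scale and is named here after its values were seen. In that fit 6.67% of all genes tested were called lower. Of 8 markers of leukocytes, endothelium, fibroblasts, squamous and alveolar epithelium, only PECAM1 (mean 2.93 FPKM) was above the filter, and its log2 change of 0.097 had a limma adjusted p of 0.590. The other 7 had means of at most 0.0221 FPKM, with SFTPC at 0 in all libraries.

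In control cells the 8 transcripts ran from among the most abundant messages to the limit of detection. ALB had the highest level, 1814 ± 95.3 FPKM (SD, n = 3), and ranked 4, 4 and 6 among protein-coding genes in siC replicates 1 to 3. AMBP followed with 677 ± 242 FPKM, RBP4 with 253 ± 17.9 FPKM, AHSG with 167 ± 49.5 FPKM, GC with 83.8 ± 21.0 FPKM and TTR with 23.0 ± 5.58 FPKM (SD, n = 3 each). In each siC library these 6 stood in the same order, and the ranges of neighbours in that order did not overlap. In siIGF2BP1 the order changed at 1 place: AHSG (353 to 405 FPKM) stood above RBP4 (326 to 354 FPKM) on average, with ranges that overlapped narrowly. FETUB and A1BG were near the limit of detection, at 0.222 ± 0.0676 and 0.0345 ± 0.0412 FPKM (SD, n = 3), with 10 reads in all for A1BG over the 3 siC libraries. The deposited gene lengths exceeded those of the canonical transcripts, and for TTR the length of 2173 bases was 3.53 times that of the canonical transcript (616 bases), against 1.18 to 1.62 times for the others. Per base of the canonical transcript, TTR would stand at 81.1 FPKM in siC and GC at 118 FPKM, which leaves the order as it was. Together the 8 genes took 1.12% to 1.41% of the FPKM of protein-coding genes in siC and 1.69% to 1.73% in siIGF2BP1, and ALB alone took 53.8% to 67.6% of their sum.

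**Figure D1:**
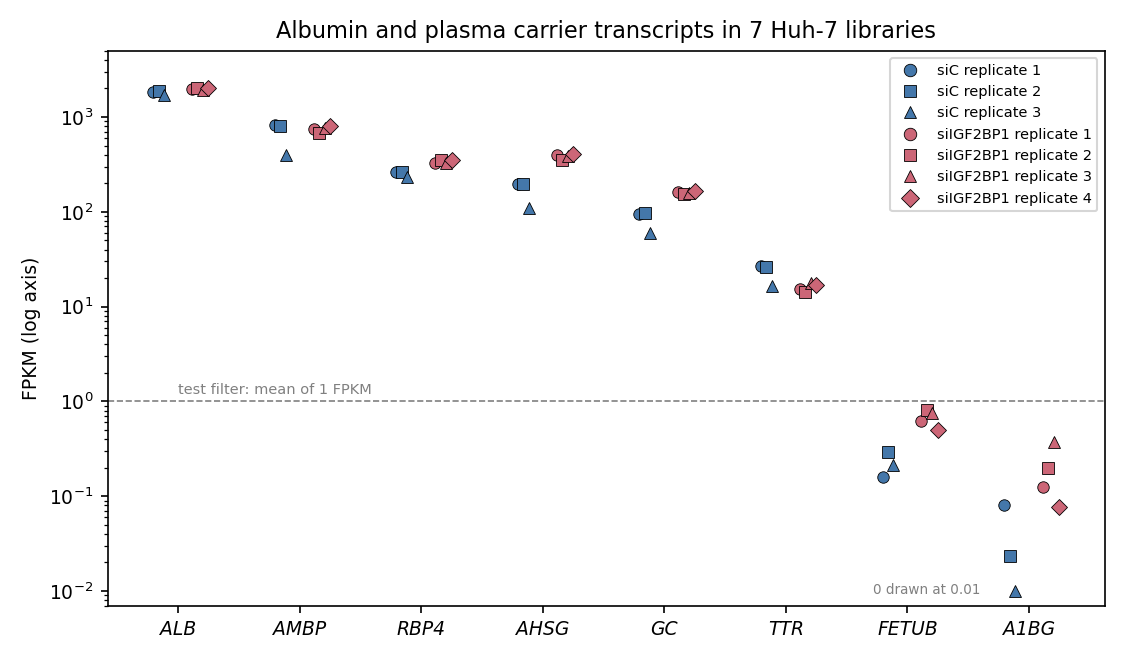
Level of each of the 8 transcripts in FPKM (log axis) in the 3 siC (blue) and 4 siIGF2BP1 (red) libraries, with the symbol giving the replicate; the dashed line is the test filter, a mean of 1 FPKM, and a value of 0 is drawn at 0.01. All siIGF2BP1 points of AHSG, GC and RBP4 lie above all siC points, those of ALB do so by a small margin, and siC replicate 3 lies below the other siC libraries for each of the 6 abundant genes.

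Of the 8 genes, 6 passed the filter and entered the test, limma fitted to log2(FPKM + 0.1) of 14839 genes with a trend of variance on level, two-sided, with Benjamini-Hochberg adjustment. At the adjusted p of 0.01 that the study used as its FDR threshold, 0 of the 6 passed, where 1.65% of all genes tested were called higher and 2.28% lower. At an unadjusted p of 0.05, 4 of the 6 passed in this fit, AHSG, GC and RBP4 as higher and TTR as lower, where 11.0% of all genes were called higher and 14.8% lower by that rule. At an adjusted p of 0.05, AHSG, GC and RBP4 passed, all higher in siIGF2BP1, against 4.74% of all genes called higher and 6.81% called lower. The same 3 genes passed 0.01 with voom, which weighs the reads recovered from the FPKM values by their precision and called 2.38% of all genes higher and 3.3% lower. Without siC replicate 3, the 3 genes passed 0.01 as higher and TTR as lower, where 3.59% of all genes were called higher and 6.67% lower. Without any of the other 6 libraries, 0 of 6 passed, where 129 to 195 of 14839 genes passed, against 583 in the fit to all 7. For 4 of the 6, every siIGF2BP1 value was outside the siC range, all higher in siIGF2BP1 (ALB, RBP4, GC and AHSG), against 11.9% of all genes higher and 15.1% lower without overlap. The median log2 change of the 6 was 0.32, and that of all genes tested was -0.017, with quartiles at -0.20 and 0.17. In bulk RNA, fewer cells that make a transcript and less of it per cell cannot be told apart.

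AHSG, fetuin A, had the largest difference of the 6. It was at 197, 195 and 110 FPKM in siC replicates 1 to 3 and at 394, 353, 385 and 405 FPKM in siIGF2BP1 replicates 1 to 4. Every siIGF2BP1 library was well above every siC library, and siC replicate 3 was at 56.3% of the mean of the other siC libraries. The means were 167 ± 49.5 FPKM (siC, SD, n = 3) and 384 ± 22.4 FPKM (siIGF2BP1, SD, n = 4), a ratio of 2.30. The log2 change was 1.25 (SE 0.207, 95% interval 0.76 to 1.73), with a limma adjusted p of 0.0115, and from 3573 to 16787 reads lay on the gene in a library. Without siC replicate 3 the log2 change was 0.97, with a limma adjusted p of 0.000459, and after each library's trend with G+C content was removed it was 1.27, with a limma adjusted p of 0.00237. Over 17 alternatives the adjusted p ran from 0.000121 to 0.153. The upper end came from the fit with the replicate number as a block, where 0 genes passed. AHSG moved from ranks 148, 149 and 249 among protein-coding genes in siC to ranks 48 to 51 in siIGF2BP1.

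GC, the vitamin D-binding protein, was at 95.7, 96.2 and 59.5 FPKM in siC and at 163, 152, 160 and 166 FPKM in siIGF2BP1. The groups were clearly separated, and again siC replicate 3 was the low siC library, at 62.0% of the other siC mean. The means were 83.8 ± 21.0 FPKM (siC, SD, n = 3) and 160 ± 5.83 FPKM (siIGF2BP1, SD, n = 4), a ratio of 1.91. The log2 change of 0.97 (SE 0.171, 95% interval 0.56 to 1.37) had a limma adjusted p of 0.0142. Without siC replicate 3 it was 0.74, with a limma adjusted p of 0.000424, and over 17 alternatives the adjusted p ran from 0.000162 to 0.161. A pseudogene of 5S rRNA, RNA5SP163, lies within the gene on its strand over 99 bases and was listed at up to 9.16 FPKM.

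RBP4, which takes retinol from the liver to other tissues, had a smaller and tighter difference. It was at 265, 262 and 233 FPKM in siC and at 326, 354, 329 and 351 FPKM in siIGF2BP1. The groups did not overlap, and siC replicate 3 was at 88.3% of the other siC libraries. The means of 253 ± 17.9 FPKM (siC, SD, n = 3) and 340 ± 14.4 FPKM (siIGF2BP1, SD, n = 4) gave a ratio of 1.34. The log2 change of 0.43 (SE 0.0788, 95% interval 0.24 to 0.61) had a limma adjusted p of 0.0167, and 0.37 without siC replicate 3 had a limma adjusted p of 0.00443. Over 17 alternatives the adjusted p of RBP4 ran from 0.00091 to 0.227.

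TTR, the partner of RBP4 in plasma, was the one abundant member with a lower mean in siIGF2BP1. It was at 26.5, 25.9 and 16.6 FPKM in siC and at 15.2, 14.1, 18.0 and 16.7 FPKM in siIGF2BP1. The groups overlapped through siC replicate 3, which was at 63.2% of the mean of the other siC libraries and fell among the siIGF2BP1 values. The means were 23.0 ± 5.58 FPKM (siC, SD, n = 3) and 16.0 ± 1.67 FPKM (siIGF2BP1, SD, n = 4), a ratio of 0.696. The log2 change of -0.49 (SE 0.178, 95% interval -0.91 to -0.075) did not pass, with a limma adjusted p of 0.133. Without siC replicate 3 it was -0.71, and TTR fell with a limma adjusted p of 0.00447; over 17 alternatives the adjusted p ran from 0.00102 to 0.392. Between 471 and 1803 reads lay on the gene.

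ALB itself differed little. It was at 1852, 1884 and 1705 FPKM in siC and at 1964, 2042, 1944 and 2022 FPKM in siIGF2BP1. All 4 siIGF2BP1 libraries were above all siC libraries, by a margin smaller than the range within siC. The means were 1814 ± 95.3 FPKM (siC, SD, n = 3) and 1993 ± 46.5 FPKM (siIGF2BP1, SD, n = 4), a ratio of 1.10. The log2 change of 0.14 (SE 0.0978, 95% interval -0.094 to 0.37) did not pass, with a limma adjusted p of 0.443, and without siC replicate 3 it was 0.093 and did not pass. It depended on the scaling: quantile normalization, which forces the same distribution on every library, gave a log2 change of 0.53 and a limma adjusted p of 0.0020, and the adjusted p ran from 0.0020 to 0.803 over 17 alternatives. At this level, with 79269 to 203823 reads per library, counting error was negligible. ALB ranked 3 among protein-coding genes in each siIGF2BP1 library.

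AMBP was the second most abundant member and, of the 6 tested genes, the most scattered in siC. It was at 832, 802 and 398 FPKM in siC and at 755, 671, 768 and 801 FPKM in siIGF2BP1. The siIGF2BP1 libraries lay below siC replicates 1 and 2 and far above siC replicate 3, which was at 48.8% of the other siC mean. The means were 677 ± 242 FPKM (siC, SD, n = 3) and 749 ± 55.3 FPKM (siIGF2BP1, SD, n = 4). The log2 change was 0.22 (SE 0.258, 95% interval -0.39 to 0.83, limma adjusted p = 0.666) and turned to -0.13 without siC replicate 3 (limma adjusted p = 0.278), and the adjusted p ran from 0.156 to 0.822 over 17 alternatives.

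**Figure D2:**
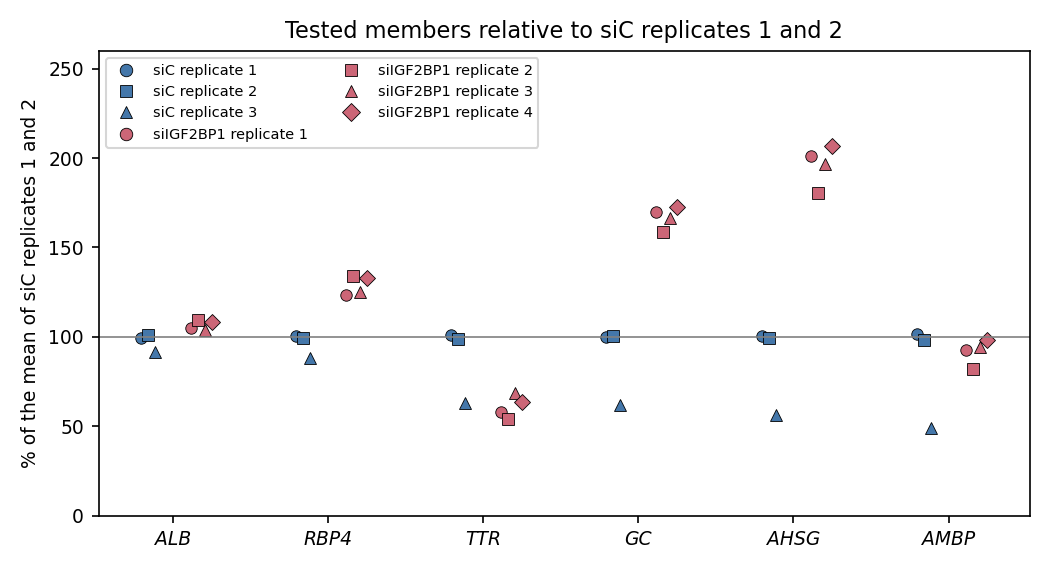
Level of the 6 tested genes in each library as a percentage of the mean of siC replicates 1 and 2 (linear axis from 0; blue siC, red siIGF2BP1, symbols give the replicate). siC replicate 3 lies at 91.3% for ALB, 88.3% for RBP4, 63.2% for TTR, 62.0% for GC, 56.3% for AHSG and 48.8% for AMBP, and siIGF2BP1 points lie above 100% for ALB, RBP4, GC and AHSG and below it for TTR and AMBP.

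Transcripts low in siC replicate 3 included both G+C-rich ones (AMBP 55.4% and AHSG 54.6%) and poorer ones (TTR 42.6% and GC 43.7%), while RBP4 (57.8%) and ALB (40.8%) were closest to the other siC libraries. Among siC replicates 1 and 2 the coefficient of variation was at most 2.58% for the 6 genes, and it was between 2.33% and 10.5% in siIGF2BP1. With all 3 siC libraries it reached 35.7% for AMBP.

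FETUB and A1BG did not pass the filter and were read as counts. FETUB was at 0.158, 0.293 and 0.215 FPKM in siC and at 0.627, 0.817, 0.746 and 0.495 FPKM in siIGF2BP1, from 32 reads in all siC libraries and 87 in all siIGF2BP1 libraries. Every siIGF2BP1 library was above every siC library. The means were 0.222 ± 0.0676 FPKM (siC, SD, n = 3) and 0.671 ± 0.141 FPKM (siIGF2BP1, SD, n = 4), a ratio of 3.02. An exact permutation test over the libraries, two-sided by doubling the smaller tail, gave p = 0.0571. That is the smallest value the doubled test allows over 35 splits, so it cannot reach 0.05. When all genes above 0 were fitted, the log2 change was 1.26 with a limma adjusted p of 0.0583, and voom gave 1.54 with an adjusted p of 0.0210.

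A1BG had 10 reads in siC and 48 in siIGF2BP1. It was at 0.0800, 0.0234 and 0 FPKM in siC, where 3 reads would have been 0.0544 FPKM in the library at 0, and at 0.124, 0.200, 0.377 and 0.0769 FPKM in siIGF2BP1. The groups overlapped, with siIGF2BP1 replicate 4 just under siC replicate 1. The same doubled test, which cannot reach 0.05, gave p = 0.114 (exact permutation, two-sided). When all genes above 0 were fitted, the log2 change was 1.07 with a limma adjusted p of 0.243, and voom gave 2.64 with an adjusted p of 0.0702. Its locus also holds the antisense gene A1BG-AS1 and an unnamed lncRNA on its own strand at up to 0.424 FPKM. How reads were assigned by strand is not stated, so the A1BG values are uncertain to that extent. AHSG and FETUB both lie opposite HRG-AS1 (at most 0.199 FPKM) and RBP4 lies opposite FFAR4 (at most 0.131 FPKM), which is small beside AHSG and RBP4 but of the order of FETUB.

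Ratios within a library do not depend on library size. They were formed for partners in plasma or relatives, and are given as descriptions without a test. The ratio of ALB to AFP, adult to fetal carrier, was 0.546, 0.546 and 0.653 in siC and 0.701, 0.770, 0.717 and 0.724 in siIGF2BP1. All siIGF2BP1 ratios were above all siC ratios, with means of 0.582 ± 0.0618 (SD, n = 3) and 0.728 ± 0.0295 (SD, n = 4), and per base of gene AFP was above ALB in all 7 libraries. The ratio of TTR to RBP4 was 0.1001, 0.0988 and 0.0712 in siC and 0.0467, 0.03996, 0.0545 and 0.0476 in siIGF2BP1, and so separated the groups although TTR alone did not. AHSG to ALB was 0.0915 ± 0.0233 (SD, n = 3) in siC and 0.193 ± 0.0134 (SD, n = 4) in siIGF2BP1, and GC to ALB was 0.0459 ± 0.00952 (SD, n = 3) and 0.0804 ± 0.00392 (SD, n = 4), both without overlap. AMBP to ITIH2, the heavy chain gene whose product is joined to bikunin, was 2.81 ± 0.471 (SD, n = 3) and 3.29 ± 0.165 (SD, n = 4), and its groups overlapped.

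**Figure D3:**
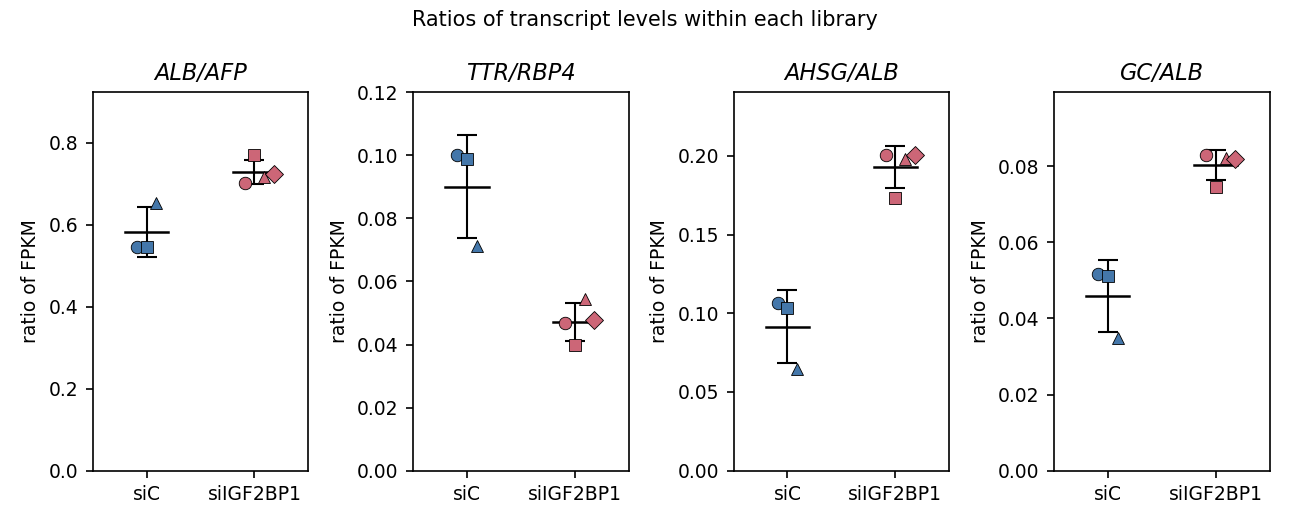
Ratios of FPKM within each library for ALB/AFP, TTR/RBP4, AHSG/ALB and GC/ALB (linear axes from 0; points are libraries, blue siC and red siIGF2BP1, circles, squares, triangles and diamonds being replicates 1 to 4, bars the mean ± SD). The groups do not overlap in any of the 4 panels, with higher ratios in siIGF2BP1 for ALB/AFP, AHSG/ALB and GC/ALB and lower ones for TTR/RBP4. The ratio of AMBP to ITIH2, whose groups overlapped, is not drawn.

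The genes around the 8 were taken from 10 lists. These were written from general knowledge, but with earlier results of these data known. Their genes are described by counts at the adjusted p of 0.01. At that threshold 1.65% of all genes tested were called higher and 2.28% lower. Without siC replicate 3 these shares were 3.59% and 6.67%, and with voom 2.38% and 3.3%. Of the albumin family, AFM and AFP were tested. AFM, afamin, a carrier of vitamin E, rose from 0.471 ± 0.133 FPKM (SD, n = 3) to 2.39 ± 0.187 FPKM (SD, n = 4). Its siC mean was below the filter of 1 FPKM, so it could enter the test only as higher in siIGF2BP1. Its log2 change was 2.15, with a limma adjusted p of 0.00148. AFP averaged 3151 ± 469 FPKM over siC (SD, n = 3) and 2740 ± 71.2 FPKM over siIGF2BP1 (SD, n = 4). Its log2 change of -0.19 did not pass (limma adjusted p = 0.450), nor did the -0.32 found without siC replicate 3. The call of AFM was lost by a narrow margin without siIGF2BP1 replicate 1, 3 or 4, where its limma adjusted p was 0.0122, 0.0104 and 0.0105.

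Of 7 further plasma carriers, 6 were tested, 3 rose and 0 fell, with a median log2 change of 0.85. Of all genes tested, 1.65% rose and 2.28% fell by the same rule. The list was chosen with earlier results of these data known, so its counts describe these genes and are no evidence about carriers as a class. SERPINA7, the thyroxine-binding globulin and so another carrier of the ligand of TTR, rose from 0.457 ± 0.0873 FPKM (SD, n = 3) to 4.50 ± 0.565 FPKM (SD, n = 4). Its siC mean was below the filter of 1 FPKM, so it could enter the test only as higher in siIGF2BP1. Its log2 change of 3.05 had a limma adjusted p of 0.00038. HP, haptoglobin, which binds free hemoglobin, rose from 2.51 ± 0.770 FPKM (SD, n = 3) to 8.84 ± 0.651 FPKM (SD, n = 4), or by 1.82 on a log2 scale, with a limma adjusted p of 0.00291. CP, the copper-bearing ferroxidase ceruloplasmin, had a log2 rise of 0.64, with a limma adjusted p of 0.00575. HPX, TF and SERPINA6, drawn in the plot of changes with all tested genes of the related lists, had positive log2 changes of 0.91, 0.79 and 0.088 that did not pass. Of the 6 carriers, 5 rose without siC replicate 3, where 3.59% of all genes tested rose, and the median was 0.65. TF (0.51) and HPX (0.71) were past the threshold there, and SERPINA6 was at -0.034. With voom, 4 of the 6 passed, HPX among them, where 2.38% of all genes tested were called higher. TF, HPX and SERPINA6 are named after their values were seen. SHBG was below the filter.

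Among 7 lipocalins, the family of RBP4 and of one AMBP product, 3 were tested and 0 passed. ORM1 (0.71) and ORM2 (0.61) passed as higher without siC replicate 3, and with voom ORM1 alone did. ORM1, an acid glycoprotein that binds basic drugs, averaged 69.7 ± 18.5 FPKM over siC (SD, n = 3) and 132 ± 11.6 FPKM over siIGF2BP1 (SD, n = 4), and its log2 change was 0.95 with a limma adjusted p of 0.0216. ORM1 and ORM2 are near-identical copies, and how reads are split between them is uncertain. Of 3 relatives of the fetuins in the cystatin superfamily, 2 were tested, and KNG1, kininogen, the source of bradykinin, rose from 10.3 ± 1.55 FPKM (SD, n = 3) to 20.1 ± 0.894 FPKM (SD, n = 4), by 0.96 as a log2 value, with a limma adjusted p of 0.00274. Of 5 partners of bikunin, ITIH2 alone was tested. It averaged 235 ± 52.0 FPKM over siC (SD, n = 3) and 227 ± 9.13 FPKM over siIGF2BP1 (SD, n = 4), and its log2 change was -0.023, with a limma adjusted p of 0.950. It was -0.22 without siC replicate 3 and did not pass 0.01. HP, CP and KNG1 passed 0.01 without siC replicate 3, at log2 changes of 1.54, 0.60 and 0.83, and not without any of the other 6 libraries, whereas SERPINA7 passed in all 7 of these fits.

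**Figure D4:**
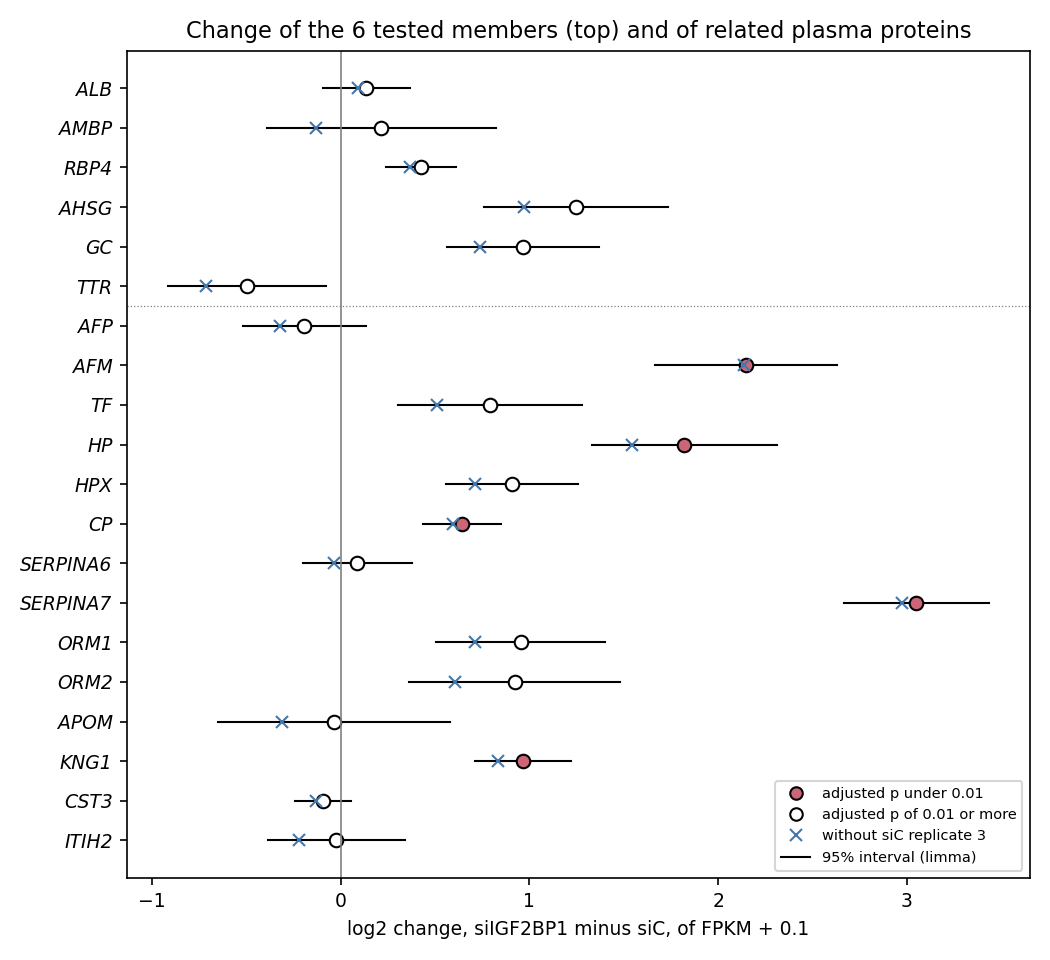
Log2 change (siIGF2BP1 minus siC, of FPKM + 0.1) of the 6 tested members, above the dotted line, and of all tested genes of the albumin family, plasma carrier, lipocalin, cystatin and bikunin partner lists, below it. Circles are the fit to all 7 libraries, red where the adjusted p was under 0.01, with 95% intervals, and crosses the fit without siC replicate 3; SERPINA7, AFM, HP, KNG1 and CP are red, and AMBP is the member whose 2 estimates lie on opposite sides of 0.

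Receptors, ligand handling and regulators showed few calls. Of 9 genes for uptake and salvage of plasma proteins, 7 were tested and 0 passed, with a median log2 change of 0.24. The most abundant, ASGR2, a subunit of the receptor that clears desialylated glycoproteins, averaged 77.3 ± 22.0 FPKM over siC (SD, n = 3) and 83.5 ± 2.90 FPKM over siIGF2BP1 (SD, n = 4). Its log2 change was 0.16, with a limma adjusted p of 0.678, and turned to -0.11 without siC replicate 3, where the median of the list was 0.13 and 0 of 7 passed. Of 12 genes that handle or sense retinol, vitamin D or thyroid hormone, 6 were tested and 0 passed, with a median of -0.054. The most abundant, the retinol dehydrogenase RDH10, averaged 17.5 ± 1.60 FPKM over siC (SD, n = 3) and 17.4 ± 0.70 FPKM over siIGF2BP1 (SD, n = 4). Its log2 change was -0.0046, with a limma adjusted p of 0.982, and was 0.066 without siC replicate 3, where 0 of the 6 passed. At an adjusted p of 0.05, 1 of the 6 passed as lower, against 6.81% of all genes tested. It was the retinoic acid receptor RARB (log2 change -0.50, limma adjusted p = 0.0192), named after its values were seen. Of 12 transcription factors of the liver, 11 were tested, 1 rose and 0 fell, with a median of 0.076. Leaving out siC replicate 3, 2 of the 11 passed, 1 in each direction, with a median of 0.11. ZHX2, known as a repressor of AFP in the adult liver, rose from 22.5 ± 2.40 FPKM (SD, n = 3) to 32.7 ± 1.13 FPKM (SD, n = 4). Its log2 change was 0.54, with a limma adjusted p of 0.00856, and it passed without siC replicate 3 (0.45) but not without any of the other 6 libraries.

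The protein-coding genes whose pattern over the 7 libraries was most like that of ALB, by the Pearson correlation of log2(FPKM + 0.1) among 10671 genes, were CNTRL (0.995), STK17A (0.986), BET1 (0.985), MMP11 (0.985) and ZRANB2 (0.983). These correlations rest on 7 points that share the group difference and the position of siC replicate 3. The log2 changes of these 5 genes ran from 0.14 to 0.82, and 0 of 5 passed the test.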

How the data were processed

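The authors depleted ribosomal RNA, made libraries with a directional kit, clipped reads with cutadapt 1.14, aligned them to hg38 with HISAT2 2.1.0 and counted reads per gene with featureCounts 1.5.3 over an Ensembl annotation. Whether counting used strand is not stated. The deposited table holds FPKM per library and gene length, and also columns of the authors' edgeR 3.18.1 comparison (fold change, p-value, FDR), which were not used. FPKM times length gave whole reads for 100.0% of values above 0 (tolerance 0.01), which gave the depth and the reads per gene. Groups and replicate numbers came from the sample titles. Nothing states that libraries came from separate cultures, so p-values measure the spread between libraries, which may be technical.

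The 14839 of 58174 genes averaging 1 FPKM or more were fitted with limma 3.58.1 (R 4.3.3, lmFit and eBayes with trend). Values were log2(FPKM + 0.1), no covariate entered, tests were two-sided, p-values were adjusted after Benjamini and Hochberg, and 0.01 was the threshold. This scale understates changes of low genes. The fit was tested on simulated reads. The exact permutation test used scipy 1.17.1.

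The members and the 10 lists (albumin family, plasma carriers, lipocalins, cystatin relatives, bikunin partners, receptors and salvage, ligand handling, regulators, hepatocyte markers, other cell markers, 71 genes) were chosen with earlier results of these data known. Named were all 8 members, every list gene past the threshold, for a list with none its most abundant tested gene, IGF2BP1 and the 5 genes most like ALB. Voom without the filter was chosen after seeing the data. Promoters came from RefSeq (GRCh38.p14) and loci from GENCODE annotation of GRCh38. Some results are not reported here.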

Additional observations from a re-analysis of the deposited data

Results flagged for a closer look

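In siIGF2BP1, the ratios of GC to ALB and of AHSG to ALB each had a single low library, siIGF2BP1 replicate 2. For GC to ALB it was at 0.0746 against 0.0820 to 0.0829 in the other 3 libraries, and its gap to the nearest value took 0.884 of the range of the group, above Dixon's critical value for 4 samples. For AHSG to ALB it was at 0.173 against 0.198 to 0.200, with a gap of 0.913 of the range. Of 20 results examined this way, 2 were flagged, where chance alone gives about 1. In siC, replicate 3 also stood apart in these ratios, without being among the flags. It was at 0.0349 against 0.0517 and 0.0510 for GC to ALB, and at 0.0647 against 0.106 and 0.103 for AHSG to ALB. Both ratios share ALB as the denominator, and in both siIGF2BP1 replicate 2 remained above every siC library.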

How the results depend on the processing

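The direction of ALB, TTR, RBP4, GC and AHSG was the same under all 17 alternatives. Same-numbered libraries showed no sign of pairing (correlation of deviations from the group means -0.0263, -0.118 and -0.111). Differently numbered pairs ran from -0.169 to 0.201, and so few values cannot exclude a pairing. With the replicate block, in which siIGF2BP1 replicate 4 has no partner, 0 genes passed, with 2389 at an unadjusted p under 0.05 (3838 without the block). IGF2BP1 itself had a limma adjusted p of 0.0909 in that fit. The same fit gave the highest adjusted p of TTR, RBP4, GC, AMBP and AHSG. Quantile normalization gave log2 changes of 0.53 for ALB, 0.62 for RBP4, 1.07 for GC and 1.44 for AHSG, all past the threshold (4 members, among 539 of 14839 genes). Array weights gave -0.69 for TTR, 0.35 for RBP4, 0.76 for GC and 1.01 for AHSG, past it (4 members), and turned AMBP to -0.080. Voom gave 0.43, 0.97 and 1.26 for RBP4, GC and AHSG, and without a filter 0.42, 0.94 and 1.21 (3 members each, the latter among 779 of 34319 genes). AHSG alone passed with a mean of at least 5 FPKM (1.25, among 468 of 7952 genes) and with the G+C trend removed (1.27), 1 member each, and 3 members passed at 0.05. With a pseudocount of 1, FETUB was at 0.45 and A1BG at 0.20; voom without a filter gave 2.64 for A1BG. The number of genes past the threshold, 245 higher and 338 lower, became 352 in all without a filter, 2744 with array weights, 980 with the G+C trend removed, 842 with voom (353 and 489) and 1713 at 0.05. With 1 library left out at a time it ran from 129 (without siC replicate 2) to 1523 (without siC replicate 3), and the log2 changes ran from 0.093 to 0.17 for ALB, -0.71 to -0.38 for TTR, 0.37 to 0.46 for RBP4, 0.74 to 1.08 for GC, -0.13 to 0.40 for AMBP, 0.97 to 1.39 for AHSG, 1.11 to 1.41 for FETUB and 0.81 to 1.30 for A1BG; 0 to 4 members passed. Without siC replicate 3, TTR was at -0.71 and AMBP at -0.13. The cause of these differences was not tested. FETUB and A1BG rest on too few reads for a firm value, and the other 6 on at least 471 reads per library.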
